A study of Mus musculus with 6 samples.

Results

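Solute carriers are the membrane proteins, named with the prefix Slc in mouse, that move amino acids, sugars, ions, metals, nucleosides and metabolites into and out of cells and organelles. The genes described here were taken by symbol: a probe set entered if the array annotation gave it a single symbol of the form Slc, family number, letter and member number, and the probe set with the highest mean signal stood for its gene. The rule found 150 genes among the 8251 genes with a single symbol on the array. Of these, 74 passed the filter on low signal and were tested, and 76 did not. The 150 include 3 genes whose symbol fits the rule but whose product is a regulator or partner of a carrier, Slc9a3r1, Slc9a3r2 and Slc4a1ap, and these were kept apart from the families below.

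The RNA came from C2AS12 cells, mouse myoblasts of the C2 lineage, after adenoviral infection. There were 3 treatments: virus for wild-type p300, the same virus with doxycycline, and virus for mutant p300, p300 being a histone acetyltransferase and transcriptional coactivator. Each treatment was sampled at 0 h, before low-serum differentiation medium was added, and again after 24 h of exposure, on 6 arrays, so that every combination of treatment and time has a single array. By the series description, cells with wild-type p300 survived and cells of both other treatments died by apoptosis. All groups are infected cells of a single line, the labels give no uninfected cells, no mutation and no action of doxycycline, and no probe set was annotated to p300 itself, so the transgene was not checked here. The muscle regulator Myod1 was measured on every array at signals between 419.1 and 813.0. Of 5 macrophage and leukocyte markers on the array, Ptprc, Lyz2 and Adgre1 were below 16.4, the floor set under low values, on all 6 arrays, while Cd68 lay between 103.9 and 173.0 and Csf1r between 35.2 and 76.9.

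Growing cells take up essential amino acids and glucose through plasma membrane carriers whose genes respond to growth signals and nutrient supply, and myoblasts leave that growing state when serum is withdrawn and they begin to differentiate. The amino acid response is a program in which the factor ATF4 binds composite elements in the promoters of transporter and synthesis genes, and several growth-linked carrier genes are known targets of MYC, which binds the palindrome called an E-box. Carriers of the mitochondrial inner membrane, the Slc25 family, exchange metabolites and nucleotides between mitochondria and cytosol.

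Promoter sequence is shown for the carriers called for a change with time whose promoter window held either element. It is also shown for Slc1a4, which was not called and was picked because its window held the amino acid response element. Slc50a1, described below on the lower side for wild-type p300, also held the amino acid response element (bases -189 to -182) and is not shown. Slc23a3, likewise tested and not called, held it too (bases -160 to -153) and is not shown. RefSeq windows on the GRCm38.p6 assembly, from 250 bases before to 50 bases after a transcript start, were found for 123 of the 150 genes (174 windows) and for 6 of the 8 genes called for a change with time. Slc7a5 and Slc6a15, both called, had no window and were not searched for either element. Both strands were searched for TGATGNAA, the core of the amino acid response element, and for the E-box CACGTG, 2 motifs that can overlap each other at the letters TG. The response element was present in 7 of the 174 carrier windows (4.02%) and in 3.97% of all 32851 windows. The E-box was present in 21 carrier windows (12.1%) and in 7.15% of all windows. In the sequences, written 5′ to 3′ on the strand of the gene, capitals mark the motif.
Slc1a4, chr11:20332709-20332737, minus strand, with the response element across the transcript start: cctccagcgtgcctcctgcgTTGCATCAt
Slc20a1, chr2:129198578-129198776, plus strand, with 2 E-boxes: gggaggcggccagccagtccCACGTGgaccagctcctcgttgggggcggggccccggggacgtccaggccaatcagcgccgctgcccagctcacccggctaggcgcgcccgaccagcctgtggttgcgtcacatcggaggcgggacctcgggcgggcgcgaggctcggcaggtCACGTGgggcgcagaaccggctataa
Slc25a36, chr9:97111203-97111248, minus strand, with an E-box: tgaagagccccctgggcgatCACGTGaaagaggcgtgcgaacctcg
Slc29a1, chr17:45595296-45595341, minus strand, with an E-box: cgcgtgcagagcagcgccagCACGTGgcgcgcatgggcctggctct
A match is a run of letters and was not tested as a binding site.

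The first comparison asked which carriers changed over 24 h in low-serum medium, whatever the treatment. Slc7a5, Slc6a15, Slc20a1, Slc2a1 and Slc25a10 fell, and Slc8a1, Slc29a1 and Slc25a36 rose. The fall took in carriers of large neutral amino acids, of phosphate and of glucose, and the rise took in the sodium-calcium exchanger and the equilibrative nucleoside transporter. Changes are log2 differences of signal, 24 h minus 0 h, with the SD over the 3 treatments, and a gene was called at a limma adjusted p under 0.05 across all 6212 probe sets tested. Among the 74 tested carriers, 3 were called higher (4.05%) and 5 lower (6.76%), against 7.24% higher and 9.00% lower of all probe sets tested. The median change was -0.04 over the tested carriers and 0.00 over all probe sets, and the shares of carriers called were below those of the array in both directions. In RNA of whole cultures a change in the mix of cells and a change in RNA per cell cannot be told apart.

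Slc7a5 is the light chain of LAT1, the exchanger that brings leucine and other large neutral amino acids into growing cells. Its signals in wild-type, doxycycline and mutant cells were 763.2, 594.1 and 743.8 at 0 h and 320.1, 359.1 and 447.0 at 24 h. Every 24 h array lay below every 0 h array. The gene fell by 0.90 ± 0.30 on the log2 scale (SD, n = 3; limma adjusted p = 0.0022). Its heavy-chain partner Slc3a2, which holds LAT1 in the plasma membrane, had signals of 1320.7, 1150.4 and 1206.3 at 0 h and of 1417.4, 1147.5 and 1116.6 at 24 h. These overlap, and the change of Slc3a2 was 0.00 ± 0.11 (adjusted p = 0.98), so the chains of the same exchanger differed in their called status. The difference between their changes was not itself tested.

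Slc6a15, a sodium-coupled carrier of branched-chain and other neutral amino acids, had signals of 120.7, 142.8 and 135.0 at 0 h and of 71.0, 66.4 and 57.0 at 24 h, again with no overlap. It had the most negative change of the tested carriers, a fall by 1.04 ± 0.25 (SD, n = 3; adjusted p = 0.0084). Slc20a1, which takes up phosphate with sodium and also serves as a retrovirus receptor, went from 363.5, 282.5 and 255.5 to 265.6, 164.6 and 114.9. All treatments fell, but the wild-type array at 24 h lay above the mutant array at 0 h, so the times overlap across treatments. The change was -0.79 ± 0.35 (SD, n = 3; adjusted p = 0.0093).

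Slc2a1, the basal glucose transporter GLUT1, had signals of 531.8, 353.6 and 408.5 at 0 h and of 483.3, 225.7 and 285.6 at 24 h. The log2 change was -0.14 in wild-type cells, -0.65 with doxycycline and -0.52 with mutant p300, a mean fall by 0.43 ± 0.26 (SD, n = 3; adjusted p = 0.046). Slc25a10, which exchanges dicarboxylates such as malate for phosphate across the mitochondrial membrane, went from 219.8, 259.2 and 252.3 to 171.3, 170.1 and 160.3. Those ranges do not overlap, and the gene fell by 0.54 ± 0.16 (SD, n = 3; adjusted p = 0.023).

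Slc8a1, the plasma membrane sodium-calcium exchanger, rose from 110.8, 114.4 and 74.8 to 144.2, 190.3 and 137.2. All 24 h signals lay above all 0 h signals, and the change was 0.66 ± 0.26 (SD, n = 3; adjusted p = 0.031). Its other probe sets were not tested, lying under the floor on 5 and on 6 of the 6 arrays. Slc29a1, which equilibrates nucleosides across the plasma membrane, rose from 1239.1, 1201.1 and 1001.0 to 1710.9, 1535.6 and 1484.6. It had the smallest spread of the 8 called changes, 0.46 ± 0.11 (SD, n = 3; adjusted p = 0.010). Slc25a36, a mitochondrial carrier of pyrimidine nucleotides, rose from 312.2, 397.1 and 302.2 to 365.3, 496.2 and 510.8, with overlap between the times, and its change was 0.44 ± 0.28 (SD, n = 3; adjusted p = 0.048).

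**Figure D1:**
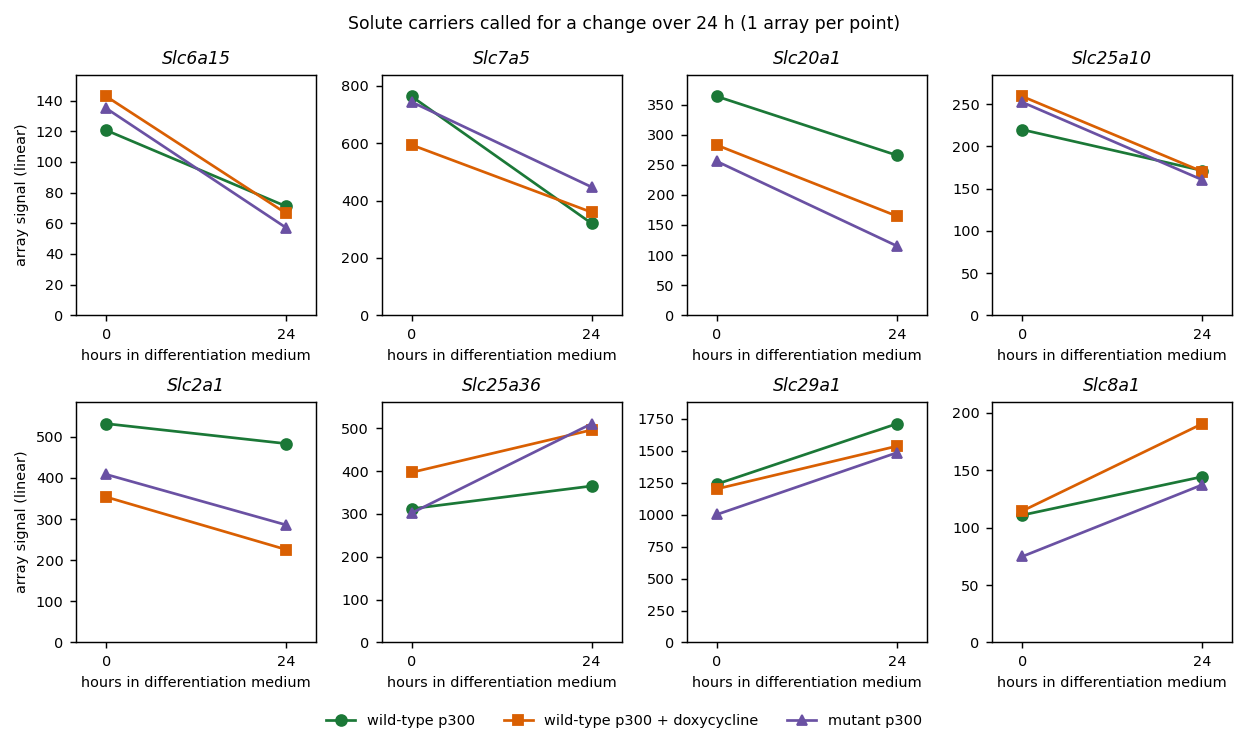
Linear array signal (vertical axis, from 0) at 0 h and 24 h in differentiation medium for the 8 carriers called with time; each point is 1 array and each line joins the arrays of 1 treatment. Slc7a5 goes from 594.1 to 763.2 at 0 h down to 320.1 to 447.0 at 24 h, while the Slc2a1 line of wild-type p300 stays near its start, from 531.8 to 483.3.

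These calls leaned on particular arrays. Without either mutant array only Slc7a5 was called, without the doxycycline array of 0 h or of 24 h 3 and 4 carriers were called, and without either wild-type array 15 were. The share of all probe sets called moved as well, from 16.2% to 7.71% and 7.74% without a mutant array. It moved to 8.95% and 8.68% without the doxycycline array of 0 h or of 24 h, and to 19.8% and 20.7% without a wild-type array. With the arrays scaled to spiked-in control RNA in place of the deposited scaling, which moved the median time change of all probe sets to -0.12, no carrier was called higher and 4 were called lower, Slc7a5, Slc6a15, Slc20a1 and Slc25a10, among 9.98% of all probe sets called in either direction.

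By family, the 12 tested amino acid carriers (families Slc1, Slc3, Slc6, Slc7, Slc38 and relatives) had 2 that fell, none that rose and 10 not called, with a median change of 0.07 that turned to -0.05 under spike-in scaling. Outside Slc7a5 and Slc6a15, the largest changes were in Slc38a5, a glutamine and asparagine carrier, at 0.39 (adjusted p = 0.10), and Slc1a4, the neutral amino acid exchanger ASCT1, at 0.30 (adjusted p = 0.079). Slc38a2, the sodium-coupled carrier SNAT2 that adapts to amino acid supply, had signals of 993.1 to 1127.8 at 0 h and of 1064.0 to 1317.4 at 24 h, a change of 0.17 ± 0.07 (SD, n = 3; adjusted p = 0.21). The creatine carrier Slc6a8 had a change of -0.10 ± 0.27 (SD, n = 3; adjusted p = 0.63). The amino acid family was therefore spread in both directions, with its called members at its lower end.

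Of the 5 tested genes of the sugar families, Slc2a1 fell and 4 were not called, with a median of -0.08. These 4 were Slc2a8, an intracellular glucose transporter (-0.05), Slc50a1, a sugar transporter of the Golgi (-0.29), Slc37a4, which carries glucose 6-phosphate into the endoplasmic reticulum (0.11), and Slc5a6, a member of the sodium-glucose family that carries biotin and pantothenate (-0.08). The 8 tested ion carriers had 1 that rose, Slc8a1, 1 that fell, Slc20a1, and 6 not called, with the highest family median, 0.18 (0.06 under spike-in scaling). Slc12a2, the sodium-potassium-chloride cotransporter NKCC1, had a change of 0.38 ± 0.22 (SD, n = 3; adjusted p = 0.051), just outside the threshold. The anion exchanger Slc4a3 had a change of 0.52 ± 0.36 (SD, n = 3; adjusted p = 0.086).

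Among 13 tested mitochondrial carriers, 1 rose, 1 fell and 11 were not called, with a median of -0.06. The ADP/ATP exchangers Slc25a4 and Slc25a5, the main routes of ATP out of mitochondria, had changes of -0.18 ± 0.07 and -0.18 ± 0.05 (SD, n = 3; adjusted p = 0.22 and 0.21), both negative in all 3 treatments. Slc25a17, a peroxisomal carrier of cofactors, had a change of 0.34 (adjusted p = 0.052). The citrate carrier Slc25a1 stood at -0.06, the oxoglutarate carrier Slc25a11 at -0.10 and the carnitine-acylcarnitine carrier Slc25a20 at 0.12, none called.

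None of the 12 tested metal carriers was called, and their median was -0.13. The iron transporter Slc11a2 stood at 0.22 and the zinc transporter Slc39a7 at 0.01, neither called. Slc29a1 was the only one of 9 tested nucleoside and nucleotide sugar carriers called, and that family's median was -0.02. None of the 9 tested carriers of vitamins, lipids, choline and heme was called (median -0.08). None of the 3 tested carriers of organic ions, drugs and related substrates was called, and neither of the 2 tested partners was. Slc66a2, which belongs to no listed family, stood at 0.05.

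**Figure D2:**
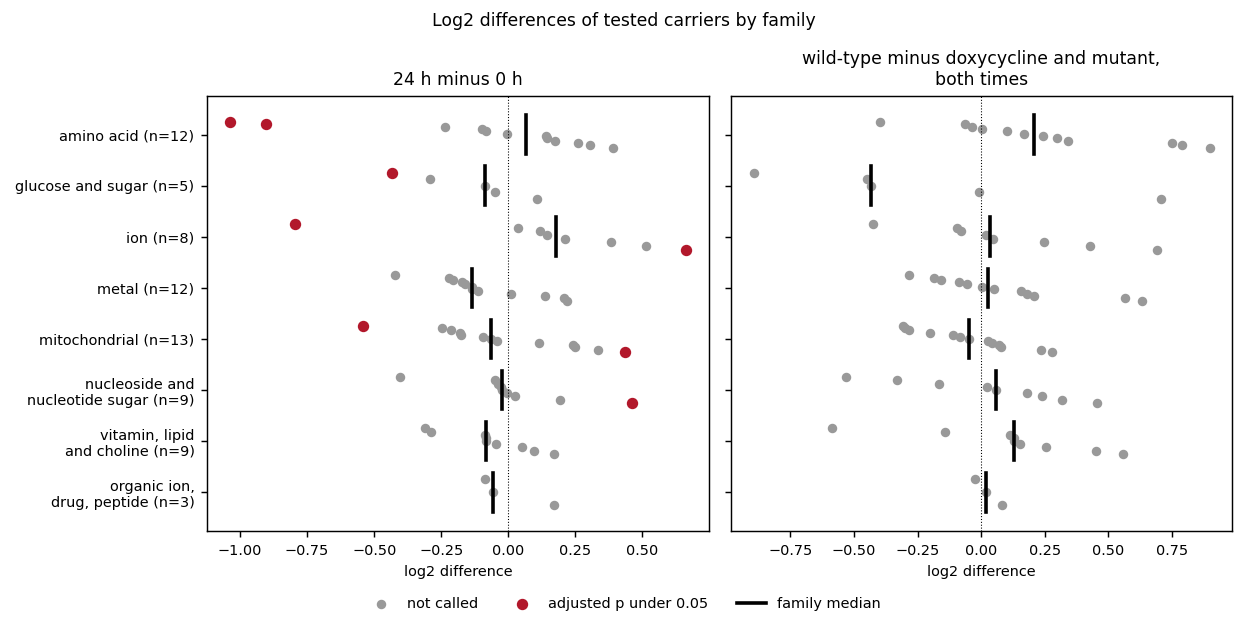
Each point is 1 tested carrier, placed by its log2 change from 0 h to 24 h (left) or its log2 difference between wild-type p300 and the other treatments over both times (right), in rows by substrate family; bars are family medians and red points have a limma adjusted p under 0.05. The red points are the 8 carriers called with time, and the right panel has none; Slc7a5 and Slc6a15 lie far left of the other amino acid carriers, whose family median was 0.07.

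A list of other transport genes, chosen for function (ion pumps, carrier partners, channels, ABC transporters and carriers without the Slc prefix), had 34 genes, of which 27 were on the array and 18 were tested. Of these, 3 rose, 2 fell and 13 were not called, with a median of -0.08. For this and the next lists the shares over all probe sets are again 7.24% higher and 9.00% lower, with a median of 0.00. The calcium pump of the sarcoplasmic reticulum Atp2a1 rose by 1.04 ± 0.21 (SD, n = 3; adjusted p = 0.0045), the copper pump Atp7a by 0.56 and the mitochondrial carrier homologue Mtch1 by 0.80. The water channel Aqp1 fell by 0.92 and the mitochondrial porin Vdac3 by 0.45. A list of 28 genes of the amino acid response and nutrient control had 20 tested, of which 1 rose, 7 fell and 12 were not called, with a median of -0.24. Its members that fell included asparagine synthetase, Asns, by 1.65 ± 0.08 (SD, n = 3; adjusted p = 2.0e-05), and the mitochondrial folate enzyme Mthfd2, by 1.80. The p53-regulated nutrient sensor Sesn1 rose by 0.69. Muscle markers moved over the same interval: of 6 tested, 3 rose, among them myogenin, Myog, by 2.20 ± 0.04 (SD, n = 3; adjusted p = 0.00012).

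The second comparison asked which carriers differed between surviving cells with wild-type p300 and dying cells of both other treatments. No carrier was called. Over both times together, with time as a term, 31 probe sets of the array were called higher with wild-type p300 (0.499%) and 2 lower (0.0322%), and 0 of the 74 tested carriers in either direction. At an unadjusted p under 0.05, limma gave 15 carriers higher (20.3%) and 5 lower (6.76%), against 6.97% and 6.75% of all probe sets. At 24 h alone, 0 carriers were called, against 0.724% of probe sets higher and 0.0483% lower, and at an unadjusted p under 0.05 the counts were 11 higher and 3 lower, against 5.91% and 5.57%. The genes with the lowest p were carriers of taurine, neutral amino acids, glycine and glucose, all on the side of wild-type p300. The fit takes both arrays of a treatment as independent, and without the wild-type array of 24 h the 15 of 74 (20.3%, against 6.97% of all probe sets) became 3 of 74 (4.05%, against 2.45%).

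Slc6a6, the sodium-coupled taurine transporter, which serves the osmotic balance of muscle cells, had the smallest p. Its signals in wild-type, doxycycline and mutant cells were 1169.0, 692.3 and 727.7 at 0 h and 1518.4, 884.0 and 587.0 at 24 h. The wild-type array was the highest at each time, and the lower wild-type value exceeded all 4 others. The log2 difference was 0.90 (limma standard error 0.17; adjusted p = 0.055) over both times and 1.08 (standard error 0.24; adjusted p = 0.10) at 24 h. A second tested probe set of the gene gave signals of 118.5, 74.3 and 65.4 at 0 h and of 150.2, 78.8 and 76.7 at 24 h, the same order of wild type over both others. Slc6a6 was called over both times in 6 of 14 alternatives. Among these the adjusted p was 0.038 with all tested probe sets of a gene averaged, 0.016 without the doxycycline array of 24 h and 0.049 without the mutant array of 24 h. It was not called in the other 8, with an adjusted p of 0.071 after quantile normalization, 0.42 with no filter and 1.0 without the wild-type array of 24 h.

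Slc1a4, whose promoter holds the response element shown above, had signals of 653.4, 466.4 and 376.5 at 0 h and of 925.6, 555.9 and 420.3 at 24 h. Wild type was highest at each time, and the difference over both times was 0.79 (standard error 0.15; adjusted p = 0.068). It was called in 2 of 14 alternatives, with an adjusted p of 0.032 without the doxycycline array of 24 h, and not in the other 12, with an adjusted p of 0.10 after quantile normalization and 1.0 without the wild-type array of 24 h. Slc6a9, the glycine transporter GlyT1, had signals of 502.1, 327.6 and 380.1 at 0 h and of 694.4, 389.5 and 312.5 at 24 h. Its difference was 0.75 (standard error 0.16; adjusted p = 0.084) over both times and 0.99 at 24 h (adjusted p = 0.085).

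Slc2a1 and Slc20a1, which fell with time, also stood above both other treatments in wild-type cells at each time, as their signals given earlier show. For Slc2a1 the difference was 0.71 (standard error 0.16; adjusted p = 0.099) over both times and 0.93 at 24 h. For Slc20a1 it was 0.69 (standard error 0.19; adjusted p = 0.15) and 0.95. The zinc transporter Slc30a4 had signals of 1228.7, 843.1 and 1173.0 at 0 h and of 1358.0, 689.9 and 848.1 at 24 h, with a difference of 0.57 over both times (adjusted p = 0.20). The heme transporter Slc48a1 had signals of 608.3, 521.6 and 536.0 at 0 h and of 617.1, 382.8 and 378.8 at 24 h, so that the wild-type array kept its level while both others were lower at 24 h than at 0 h (0.45 over both times; adjusted p = 0.19). Slc12a2 had signals of 471.6, 362.2 and 443.4 at 0 h and of 735.7, 433.2 and 525.8 at 24 h, a difference of 0.43 (adjusted p = 0.26).

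**Figure D3:**
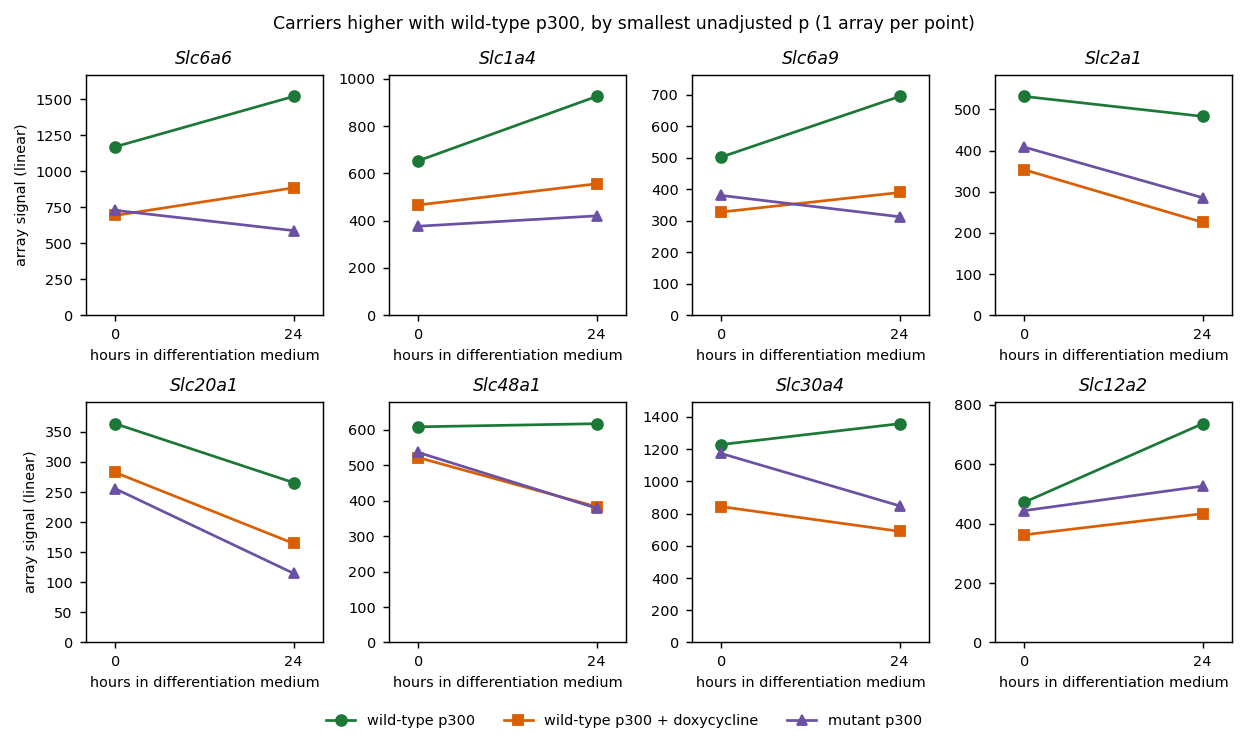
Linear array signal (vertical axis, from 0) at 0 h and 24 h for the 8 carriers with the smallest unadjusted p among those higher with wild-type p300; each point is 1 array and each line joins the arrays of 1 treatment. The wild-type line lies above both others at both times in all panels, reaching 1518.4 against 884.0 and 587.0 for Slc6a6 at 24 h; none of these genes passed the adjusted threshold.

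The remaining carriers on the higher side at an unadjusted p under 0.05 were Slc11a1 (a difference of 0.63), the choline transporter Slc44a1 (0.56), the orphan Slc35e4 (0.45), the ascorbate transporter Slc23a2 (0.25), Slc3a2 (0.24), Slc35b1 (0.24) and the ADP/ATP exchanger Slc25a5 (0.24). These genes, and those below, were singled out after their values were seen. On the lower side were Slc37a4, Slc27a4, Slc35b2, Slc50a1 and Slc38a10. Slc37a4, the glucose 6-phosphate carrier, had signals of 45.4, 89.5 and 97.2 at 0 h and of 55.8, 104.9 and 84.1 at 24 h, with wild type lowest at each time and a difference of -0.89 (standard error 0.24; adjusted p = 0.14). Slc27a4, a fatty acid transport protein, stood at -0.59 (adjusted p = 0.27), and Slc35b2, which carries the sulfate donor PAPS into the Golgi, at -0.53 (adjusted p = 0.19). Slc50a1 stood at -0.45 and Slc38a10 at -0.40. In the sugar families Slc2a1 and Slc37a4 thus lay at opposite ends, with a family median of -0.43 over both times and of 0.01 at 24 h. The median over both times was the value of Slc5a6, the carrier of biotin and pantothenate.

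**Figure D4:**
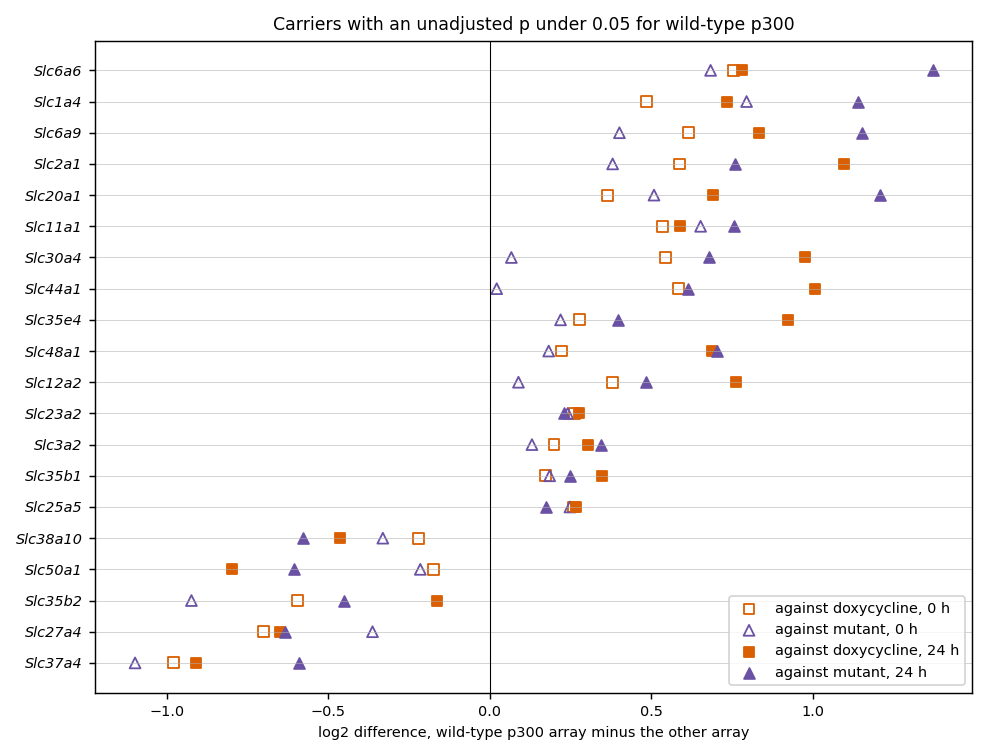
Log2 difference between the wild-type p300 array and the doxycycline (squares) or mutant (triangles) array of the same time, open at 0 h and filled at 24 h, for the 20 carriers with an unadjusted p under 0.05. All 4 differences of a gene lie on 1 side of 0; pairs of differences share a wild-type array, and Slc44a1 against mutant p300 at 0 h lies close to 0.

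The order of the arrays was counted for all tested carriers as well. At 0 h the wild-type array lay above both others for 34 of 74 carriers, against 32.1% of all probe sets, and below both for 21, against 37.0%. At 24 h it lay above both for 35, against 28.4%, and below both for 21, against 39.6%. The wild-type array lay above both others of its time at both times for 23 of 74 carriers (31.1%), against 14.6% of all probe sets tested, and below both for 9 (12.2%), against 20.4%. The 23 were 5 amino acid carriers (Slc1a4, Slc3a2, Slc6a6, Slc6a8 and Slc6a9), 4 carriers of nucleosides or nucleotide sugars, 4 of vitamins, lipids or choline, 3 of metals, 2 of ions, 2 of mitochondria, 1 of sugars, 1 of organic ions and 1 partner. The 9 included 3 mitochondrial carriers, Slc25a1, Slc25a11 and Slc25a28. No carrier was at least 2-fold from both other arrays at 0 h or at 24 h, where 0.338% and 1.30% of all probe sets were higher by that measure and 0.177% and 0.386% lower. Outcome and array cannot be told apart within a time, since wild-type p300 has 1 array at each.

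By family, the median difference over both times was 0.21 for amino acid carriers, 0.13 for carriers of vitamins, lipids and choline, 0.06 for those of nucleosides and nucleotide sugars, 0.03 for ion and for metal carriers and -0.05 for mitochondrial carriers, which turned to 0.11 under spike-in scaling. It was 0.05 over all tested carriers and -0.03 over all probe sets. Scaling to the spike-in controls moved the median of all probe sets to 0.13 over both times and to 0.32 at 24 h. The carriers called higher with wild-type p300 then numbered 7 over both times and 12 at 24 h, with 0 lower at either, against 3.82% and 6.75% of all probe sets called in either direction. By the same scaling 8 carriers were at least 2-fold above both others at 24 h, against 3.61% of all probe sets above or below. The mean log2 spike-in signal itself, set against its 6-array average, was -0.18 on the wild-type array of 24 h and 0.13 and 0.23 on the doxycycline and mutant arrays of 24 h. The ratio of 3′ to 5′ actin signal, a measure of RNA quality, was 1.33 on the wild-type array of 24 h and 1.45 and 1.49 on the others of that time. The summed signal of 4 endothelial markers, of which Cdh5 was under the floor on all arrays, was 227.6 on the wild-type array of 24 h and 61.4 to 128.7 on the other arrays, with Tek at 116.3 on the first and at 2.8 to 19.5 on the rest. Kdr had 24.8 on the wild-type array of 24 h against 39.9 and 25.6 on the others of that time, and Pecam1 70.8 against 65.5 and 41.6. For 4 epithelial markers, with Epcam under the floor on all arrays, the sum was 186.7 to 276.2. The summed signal of 7 muscle markers was 1739.1 on the wild-type array of 24 h against 2754.6 and 2130.9 on the others of that time (1412.8 to 1867.6 at 0 h). Of these, Myod1 had 419.1 against 813.0 and 732.1, Cdh15 261.8 against 481.8 and 430.6, and Acta1 200.9 against 497.3 and 246.0. Myog had 177.3 against 296.4 and 175.7, and Des 480.0 against 496.3 and 392.3. Myf5, at 153.7 against 130.5 and 127.4, and the untested Vim, at 46.3 against 39.3 and 26.8, were highest in wild type. Of the 6 tested, 0 were called for outcome, and their median difference at 24 h was -0.58. The summed signal of 3 adipocyte markers was 107.3 against 64.6 and 75.8 at 24 h (98.6 to 113.5 at 0 h). Fabp4 had 33.0 against 8.4 and 3.6, Adipoq 43.8 against 26.4 and 39.9, and Pparg 30.5 against 29.8 and 32.3. For the 5 leukocyte markers the sum at 24 h was 202.5 against 184.2 and 166.8. The part of each of these in the result was not tested.

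The third comparison asked whether the difference between wild-type p300 and the other treatments itself changed between 0 h and 24 h. By limma no carrier and no probe set of the array was called (0%), and at an unadjusted p under 0.05 there were 0 carriers, against 1.69% of probe sets higher and 1.48% lower. The change in the wild-type difference from 0 h to 24 h was 0.51 for Slc20a1, 0.52 for Slc30a4 and -0.52 for Slc7a5. It ranged over the tested carriers from -0.95, for Slc22a18, to 0.92, for Slc5a6, with an adjusted p of 1.0 for both. A p that misses the threshold does not show that the time courses were alike.

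The doxycycline and mutant treatments, both with a dying outcome, were set side by side without a test, since each has 1 array at each time. No carrier was 2-fold apart at 0 h or at 24 h, where 0.531% and 1.34% of all probe sets were at least 2-fold higher with doxycycline and 0.467% and 0.934% lower. The median absolute log2 difference of the carriers was 0.18 at 0 h and 0.24 at 24 h, against 0.17 and 0.23 for all probe sets. The furthest apart at 24 h were Slc6a20b, with 95.3 in doxycycline and 53.6 in mutant cells, and the scaffold Slc9a3r1, with 245.8 and 457.8. At 0 h they were Slc4a3, with 149.1 and 89.4, and the carrier of the neurotransmitter GABA Slc6a13, with 54.7 and 99.1.

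Of the 76 carriers not tested, 17 were under the floor on all 6 arrays, 23 on 1 to 5 arrays, and 36 were above it on all arrays but had a mean signal under 75.2. All 74 tested carriers were above the floor on every array. The untested genes included 20 of 32 genes of the amino acid families, 13 of 16 carriers of organic ions, drugs and related substrates, 13 of 21 ion carriers and all 3 monocarboxylate carriers. These classes were set by Slc number and not by the substrate of each gene, so the amino acid families also hold Slc6a2, Slc6a3 and Slc6a4. The nearest below the filter was the zinc transporter Slc39a3, with a mean signal of 72.3, and the nearest above it was Slc6a13, with 77.6. Among the untested were the cystine exchanger Slc7a11, at signals of 3.0 to 16.3, and the arginine carrier Slc7a1, at 3.4 to 8.4, both under the floor throughout. The insulin-responsive glucose transporter Slc2a4, typical of mature muscle, had signals of 31.6, 26.3 and 17.8 at 0 h and of 33.2, 22.7 and 17.2 at 24 h, highest in wild-type cells at each time. The other probe set of Slc2a4 was under the floor on all 6 arrays and did not have this order. The lactate carrier Slc16a1 lay between 68.0 and 74.4, and the glutamine carrier Slc1a5 between 18.5 and 36.9. The phosphate carrier Slc25a3, which supplies the ATP synthase, had 30.6, 97.9 and 31.6 at 0 h and 35.1, 91.7 and 89.5 at 24 h, lowest in wild-type cells at each time but close to the mutant array at 0 h. A dim signal does not show that a transcript is absent.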

How the data were processed

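Array signals of the 6 samples were used as deposited. They are linear intensity values per probe set, deposited by the authors, and the submitters' processing notes name MAS5 without a version. The trimmed means lay between 199.3 and 200.0 and array medians between 68.7 and 78.0 (actin 3′ to 5′ ratios of 1.30 to 1.49; correlation between arrays of 0.959 to 0.983), and no 2 arrays were identical. The number of arrays limits the precision.

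From 12488 probe sets 66 controls were left out, and those with a mean signal at or above the median (75.2) were tested, 6212 of 12422. Of the 12422, 10833 had 1 symbol, 396 several and 1193 none. Values were floored at 16.4 (25th percentile) and log2 transformed. The fits used limma 3.58.1 under R 4.3.3 (variance trend, 2-sided, Benjamini-Hochberg over all probe sets tested), and tested on simulated data. Time had treatment as a block, since the same treatments were sampled at both times (2 residual degrees of freedom). The outcome over both times had time as a term (3). The outcome at 24 h and its difference from 0 h had 1 mean for each outcome and time (2), where the lone wild-type array is assumed to vary like the others. The description calls the samples biological replicates but names no repeated cultures, so p-values measure the spread between these samples.

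Of 29 carriers with several probe sets, 10 further probe sets were tested, and the time change was opposite in sign in 1 (Slc31a1). Of the tested carriers, 5 had a probe set name that did not end in plain _at (_f_at, _r_at or _i_at). Cross-hybridisation was not checked for these. Families followed the Slc number. Named carriers were those called, up to 10 in each direction for time, those at least 2-fold from both other arrays at 24 h, and 45 fixed for their roles (38 on the array), 40 in all by the rule. Members, families and lists were chosen with earlier results of these data known. Alternatives were other scalings, no floor with a pseudocount of 16, other filters, gene-level averages, plain probe sets, no variance trend, no block, and each array left out.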

Additional observations from a re-analysis of the deposited data

How the results depend on the processing

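No carrier called with time changed sign under any alternative run (8 genes, 119 values). Of 97 named differences not called, 28 changed sign under at least 1 alternative (55 of 1324 values), none of them called with the turned sign; among these were Slc6a15, Slc7a5, Slc38a2 and Slc8a1 for outcome over both times and Slc25a20, Slc3a2 and Slc6a9 for time. The 8 carriers called with time, against 16.2% of all probe sets, became 4 with spike-in scaling (against 9.98%) and 4 with no replicate block (against 8.27%). They became 0 with no filter on dim probe sets, where 150 carriers were tested and 0% of all probe sets were called. Leaving out each array in turn gave 1 to 15, against 7.71% to 20.7% of all probe sets. Slc7a5 kept its call in 14 of 15 settings and Slc2a1 in 6. The pairing of arrays by treatment comes from the labels, and the fit without it called 1 higher and 3 lower. For the outcome over both times, 0 became 7 with spike-in scaling (against 3.82% of all probe sets). It became 1 each without the floor, at gene level and with plain probe sets (against 0.741%, 0.776% and 0.712%). With a doxycycline or mutant array left out it was 0 to 2, against 0.241% to 0.805%. At 24 h, 0 became 12 with spike-in scaling and 2 without the filter, and 0 to 11 with an array left out: 6 without either the doxycycline or the mutant array of 0 h, 5 without the doxycycline and 11 without the mutant array of 24 h. The interaction gave 1 call without the filter and 0 with any array left out that allowed a fit. Without the filter, 1.33% of 150 carriers were called for outcome at 24 h, against 1.55% of all probe sets, and 0.667% for the interaction, against 1.97%. In the 24 h fits without a doxycycline or mutant array the share of all probe sets called rose as well, from 0.773% to between 2.59% and 5.65%. The 2-fold counts of 0 became 8 at 24 h with spike-in scaling (against 3.61% of all probe sets) and 1 at 24 h with plain probe sets (against 1.64%). Without the filter they became 2 of 150 at each time, against 2.54% at 24 h and 1.43% at 0 h. Of the added counts, the 15 higher at an unadjusted limma p under 0.05 became 11 to 14 with a doxycycline or mutant array left out. The share of all probe sets was then 5.76% to 8.45%. The fit without the wild-type array of 24 h, where the count fell most, is given with the second comparison. The 5 lower became 1 with spike-in scaling (against 1.09% of all probe sets), 8 with no filter and 3 with a stricter filter. With a doxycycline or mutant array left out they became 4 to 7, against 4.46% to 8.19%. The 23 of 74 carriers with wild type above both others (31.1%, against 14.6% of all probe sets) ranged from 20 of 58 with the stricter filter to 29 of 150 with no filter. These were 34.5%, against 14.7% of all probe sets, and 19.3%, against 11.1%. On the lower side at an unadjusted limma p under 0.05, the 8 with no filter were of 150 (5.33%, against 4.73%) and the 3 with the stricter filter of 58 (5.17%, against 7.33%). Fits of the 24 h outcome without its wild-type array, and of the interaction without either wild-type array, were not run, having no wild-type value. Dim signal limits what can be read for the 76 untested carriers.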

Other observations

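Slc19a1, the reduced folate carrier, was read differently by its probe sets. The one with the higher mean signal had a time change of -0.09 ± 0.32 (SD, n = 3) and was not called, while the other tested probe set had signals of 109.5, 115.5 and 152.3 in wild-type, doxycycline and mutant cells at 0 h and of 25.3, 105.7 and 58.1 at 24 h, a change of -1.21 with a limma adjusted p of 0.048. The wild-type array of 24 h was the lowest of these values. The probe sets were not set against any other measure of the transcript.

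The serine synthesis enzyme Psat1, a gene of the amino acid response list, was called both with time and for outcome at 24 h. Its signals were 2156.4, 1522.2 and 1771.3 at 0 h and 1631.9, 499.0 and 754.0 at 24 h, with a wild-type difference at 24 h of 1.41 (limma adjusted p = 0.044). It was 1 of 20 tested genes of that list called for outcome at 24 h, against 0.724% higher and 0.0483% lower of all probe sets tested.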
